A study of Mus musculus with 13 samples.

Results

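A set of 10 well known cell cycle targets of TGF-beta family signalling was followed in chromatin immunoprecipitation and sequencing (ChIP-seq) peak lists from LβT2 cells. They were the cyclin-dependent kinase (CDK) inhibitor genes Cdkn1a, Cdkn1b, Cdkn1c, Cdkn2a and Cdkn2b, the growth gene Myc, the D-type cyclin genes Ccnd1, Ccnd2 and Ccnd3, and the phosphatase gene Cdc25a. A peak was assigned to one of these 10 genes when the deposited annotation named that gene as nearest and placed the peak no more than 100 kb from the gene's start. By this rule 92 of the 538751 peaks in 12 libraries belonged to them, 42 for FOXL2, 50 for H3K27ac and 0 for SMAD2/3. A peak named for Cdkn1c or Ccnd2 was not found in any of the 12 lists, and the other 8 genes each had at least 1.

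LβT2 is a mouse pituitary cell line of the gonadotrope type, the cell that makes luteinising and follicle-stimulating hormone. All groups carried a lentiviral FLAG-tagged mouse FOXL2, a forkhead transcription factor, induced with doxycycline for 48 h after 24 h of recovery, so the FOXL2 peaks describe an added, tagged protein and not the cells' own. After 2 h in medium with 2% serum the cells received vehicle or activin A at 1 nM for 1 h. SMAD2/3, FLAG (called FOXL2 here) and histone H3 acetylated at lysine 27 (H3K27ac, found at active promoters and enhancers) were each precipitated from duplicate samples of either treatment (2 with vehicle, 2 with activin), and 3 plates were combined for each sample. The labels do not say whether the duplicates came from separate experiments, so their spread may be technical. The same letter names the vehicle or activin sample of a given number in all 3 antibodies, so the 3 antibodies may have been used on shared chromatin.

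In TGF-beta and activin signalling, ligand-bound receptors phosphorylate SMAD2 and SMAD3, which join SMAD4 and bind DNA together with partner factors that differ between cell types. In epithelial cells the pathway is known for stopping the cycle in G1, through more of the CDK inhibitors p15 (Cdkn2b) and p21 (Cdkn1a) and less Myc and Cdc25a. D-type cyclins act on the opposite side: they activate CDK4 and CDK6, which phosphorylate the retinoblastoma protein and release E2F factors. RNA was not measured in these libraries, so nothing below is a level of expression.

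The libraries of the 3 antibodies differed widely in length. The SMAD2/3 peaks of the vehicle libraries numbered 605 and 144, and those of the activin libraries 7784 and 5970. FOXL2 lists held between 83834 and 97701 and H3K27ac lists between 38995 and 41763. Reads per library are unknown, and a list can be short for want of reads. H3K27ac was used to check the cell type. Of 10 gonadotrope marker genes, 9 had an H3K27ac peak in all 4 libraries in the gene or within 1000 bp of it, and Fshb had one in 0. Of 10 markers of other pituitary lineages, 8 had none in any library, Ghrhr had one in all 4 and Neurod1 in 3.

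The 250 bp upstream of a RefSeq transcript start are shown for the 4 CDK inhibitor genes with a promoter entry. They run 5′ to 3′ on the gene's strand (RefSeq, GRCm38.p6). RefSeq promoter entries matched 6 of the 10 genes with 9 windows, and Cdkn1c, Myc, Ccnd1 and Ccnd2 are named only. Capitals mark GTCT, the short SMAD element, GGCGC and GGCCG, GC-rich SMAD elements, and TAAACA, the core of the forkhead element, each on either strand. The first window, chr6:134920151-134920400 on the plus strand, lay inside an H3K27ac peak in all 4 libraries:
Cdkn1b: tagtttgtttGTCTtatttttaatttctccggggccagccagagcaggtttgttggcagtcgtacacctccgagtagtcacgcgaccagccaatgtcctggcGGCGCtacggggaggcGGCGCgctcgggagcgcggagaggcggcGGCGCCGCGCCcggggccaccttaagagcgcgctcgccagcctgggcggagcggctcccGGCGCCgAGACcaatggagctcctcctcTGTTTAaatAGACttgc
The second, chr4:89311033-89311282 on the minus strand, was also under H3K27ac in all 4:
Cdkn2b: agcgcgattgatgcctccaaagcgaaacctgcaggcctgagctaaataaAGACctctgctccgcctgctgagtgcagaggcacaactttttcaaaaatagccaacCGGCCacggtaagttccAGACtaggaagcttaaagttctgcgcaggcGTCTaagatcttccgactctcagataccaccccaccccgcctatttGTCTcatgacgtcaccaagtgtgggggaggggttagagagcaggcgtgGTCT
Cdkn1a has 2 windows, the upstream one at chr17:29090729-29090978 with H3K27ac in all 4 libraries and the downstream one at chr17:29093519-29093768 with H3K27ac in 0, both on the plus strand:
Cdkn1a upstream: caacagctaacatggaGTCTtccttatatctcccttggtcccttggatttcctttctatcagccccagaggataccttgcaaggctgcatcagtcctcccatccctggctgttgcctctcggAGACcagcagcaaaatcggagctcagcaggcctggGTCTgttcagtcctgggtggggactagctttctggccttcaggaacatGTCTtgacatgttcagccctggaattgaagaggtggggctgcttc
Cdkn1a downstream: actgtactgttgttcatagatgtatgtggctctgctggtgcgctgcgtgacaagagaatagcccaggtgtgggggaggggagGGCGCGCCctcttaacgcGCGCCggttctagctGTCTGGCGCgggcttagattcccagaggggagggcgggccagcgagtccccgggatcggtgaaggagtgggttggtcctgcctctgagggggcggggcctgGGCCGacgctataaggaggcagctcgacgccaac
The last is the window before the first exon of the Arf transcript of Cdkn2a, chr4:89294620-89294869 on the minus strand. H3K27ac touched it in 3 libraries and covered it in replicate 1 of both treatments. In replicate 2 it lay in a gap between peaks, with a vehicle peak touching only its edge and an activin peak 5 bp short:
Cdkn2a Arf: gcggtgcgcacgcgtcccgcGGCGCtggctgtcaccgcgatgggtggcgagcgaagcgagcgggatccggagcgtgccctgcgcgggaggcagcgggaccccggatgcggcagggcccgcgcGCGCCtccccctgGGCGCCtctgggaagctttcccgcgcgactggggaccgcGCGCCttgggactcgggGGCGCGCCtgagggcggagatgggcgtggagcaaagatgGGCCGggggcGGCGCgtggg

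The Cdkn1b window held 7 GGCGC, 3 GTCT and 1 TAAACA. The Cdkn2b window held 5 GTCT and 0 GGCGC, and the Arf window held 8 GGCGC and 0 GTCT. The upstream Cdkn1a window held 4 GTCT, and the downstream one held 1 GTCT and 4 GGCGC. Over all 32851 RefSeq promoter windows of this length, 82.9% held GTCT, 42.2% CAGAC (whose last 4 letters are GTCT on the other strand), 32.0% GGCGC, 30.4% GGCCG, 12.0% TAAACA, 3.17% GTAAACA (which contains TAAACA), 5.93% GTCAAC and 6.75% TGANTCA, the AP-1 element. Of the 9 windows of these genes, 6 held GTCT, 4 CAGAC, 7 GGCGC, 5 GGCCG, 2 TAAACA, 1 GTAAACA and 0 GTCAAC or TGANTCA. A match is a description of letters and not a bound site, and no SMAD2/3 peak lay in any of these windows.

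No SMAD2/3 peak was assigned to a member of the set, in either treatment. The counts were 0 and 0 with vehicle against 0 and 0 with activin, for every one of the 10 genes. Across the 28143 genes named for at least 1 peak within 100 kb, 11.6% had a SMAD2/3 region present in both activin libraries, so among 10 genes a count of 0 is not far from that background. A peak list holds only what passed the authors' threshold, so weaker binding would not appear in it. The plot of peaks by gene and library shows this empty panel beside the other antibodies.

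**Figure D1:**
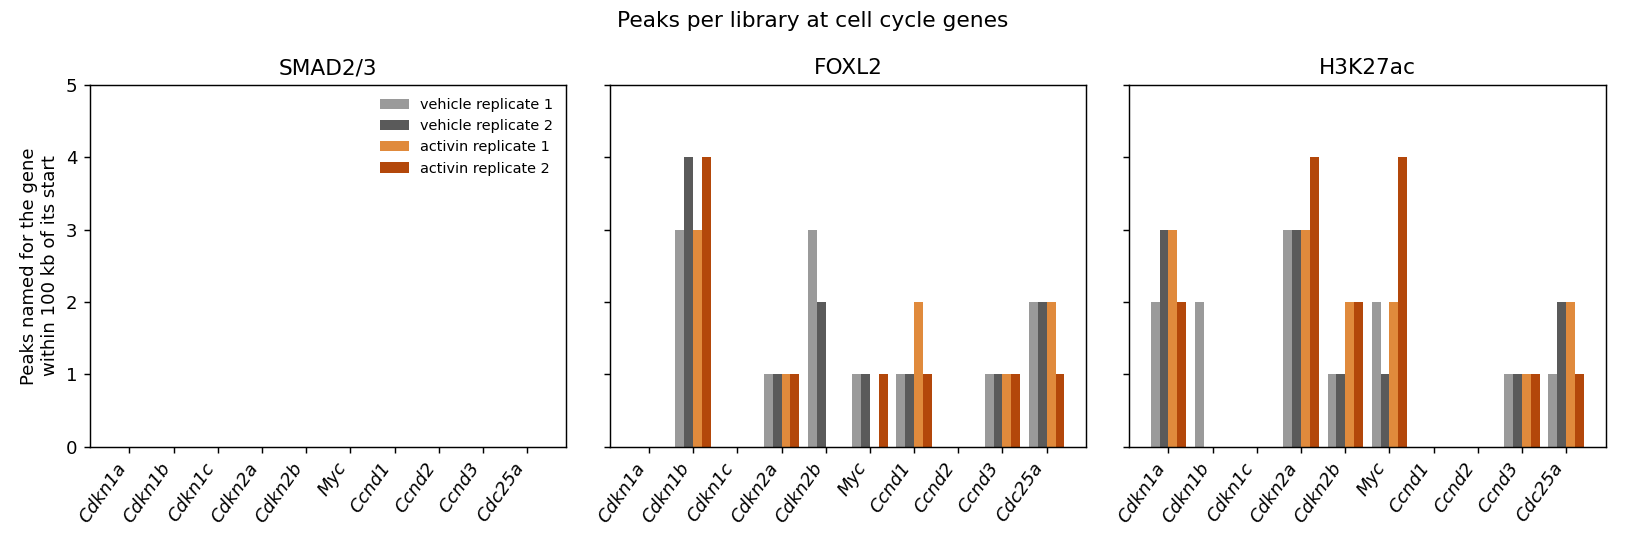
Number of peaks (vertical axis) named for each of the 10 genes within 100 kb of its start, in panels for SMAD2/3, FOXL2 and H3K27ac, with 1 bar for each of the 4 libraries. The SMAD2/3 panel is empty, and Cdkn2b has 3 and 2 FOXL2 peaks with vehicle and 0 with activin.

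FOXL2 peaks assigned to the set numbered 12 and 12 with vehicle against 9 and 9 with activin. The groups did not overlap: the difference was -0.38 on the log2(number + 1) scale, with an SD of 0 in both groups (n = 2). The exact two-sided permutation test gave p = 0.333, the smallest value that 2 against 2 libraries allow, while the whole FOXL2 lists were longer with activin by 0.17 (log2). The 5 weak vehicle peaks of Cdkn2b carried most of the gap: without that gene the counts were 9 and 10 against 9 and 9, a difference of -0.07 (exact permutation p = 1). Among peaks with a −log10 q of at least 5 the counts were 9 and 8 against 7 and 9, which overlap (difference -0.08, exact permutation p = 1). Counted as regions whichever gene name each peak carries, there were 13 and 12 with vehicle against 10 and 10 with activin, a difference of -0.29. H3K27ac peaks numbered 12 and 11 with vehicle against 13 and 14 with activin (difference 0.21, pooled SD 0.076, n = 2, exact permutation p = 0.333). The whole H3K27ac lists differed by -0.015 (log2). Without Cdkn2b the counts were 11 and 10 against 11 and 12 (difference 0.12, exact permutation p = 0.667), and at a −log10 q of at least 5 they were 8 and 7 against 7 and 9 (difference 0.08, exact permutation p = 1). As regions under any name they were 11 and 10 against 13 and 10, which overlap (difference 0.11, exact permutation p = 1).

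Overlapping peaks of the same antibody (1 bp or more) were joined across libraries, which gave 17 FOXL2 and 15 H3K27ac regions. A region was called constant with a peak in all 4 libraries, activin-only with peaks in both activin and neither vehicle library, and vehicle-only in the reverse case. Of the 17 FOXL2 regions, 8 were constant, against 47.1% of all FOXL2 regions within 100 kb of a named start. Activin-only numbered 0, against 8.72%, and vehicle-only 1, against 3.25%. Of the 15 H3K27ac regions, 9 were constant, against 47.1% of all H3K27ac regions within 100 kb of a named start. Activin-only numbered 1, against 5.82%, and vehicle-only 0, against 6.31%. Of the 17 FOXL2 regions, 9 (52.9%) overlapped a constant H3K27ac region, compared with 16.9% of all 107234. FOXL2 regions at a few gene loci share their surroundings, so this is a description.

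Strength was compared by percentile rank, the place of a region's strongest peak in its own list by −log10 q, with 100 for the strongest. Lists differ in length, so a rank shows a peak's place among its fellows and not a change of occupancy. Of the 8 constant FOXL2 regions, 2 ranked higher in both activin libraries than in either vehicle library and 2 ranked lower. Over constant FOXL2 regions within 100 kb of a named start, the shares were 29.7% and 28.2%. Of the 9 constant H3K27ac regions, 2 ranked higher and 2 lower, against 26.5% and 30.5% of those within the same distance. These shares lie near the background. Shares given below for the size of a single region's rank difference are over constant regions of the whole genome. Every rank comparison within a region has n = 2 per group and cannot give an exact permutation p below 0.333.

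**Figure D2:**
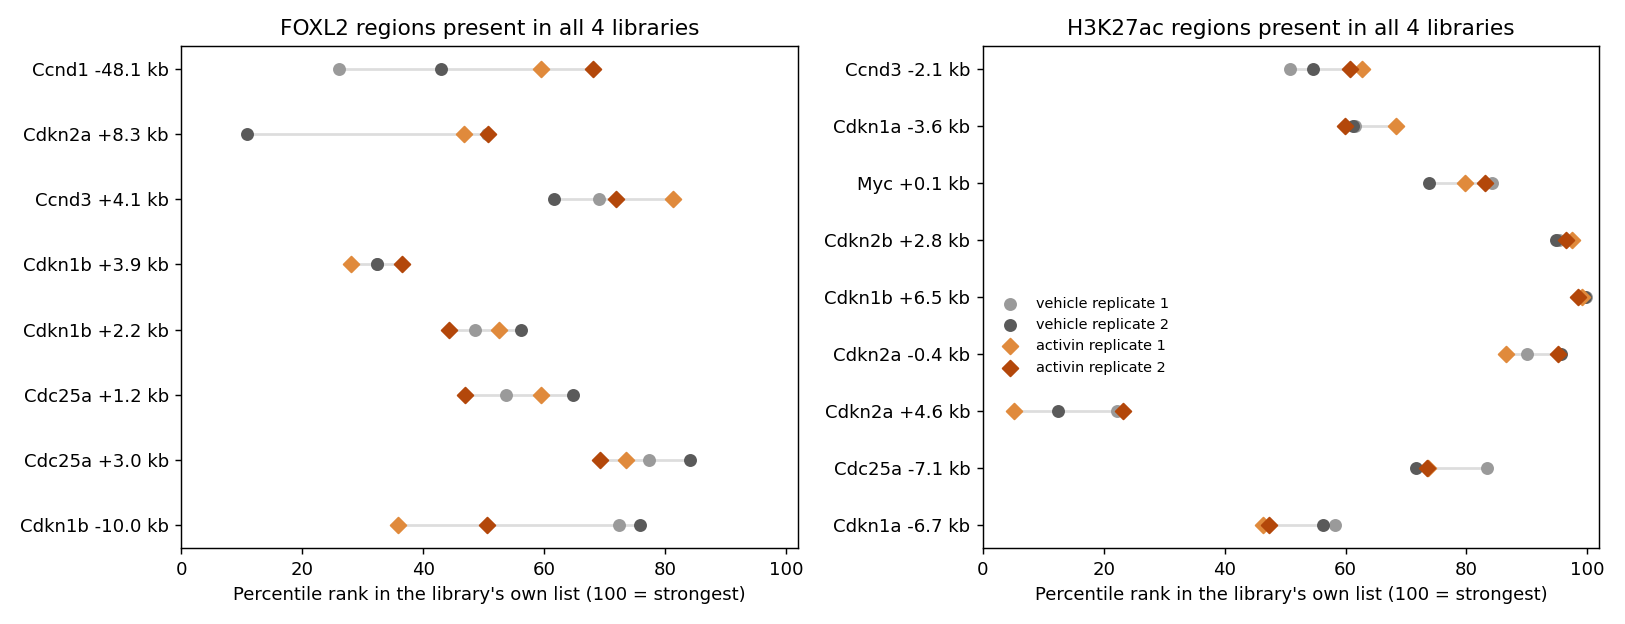
Percentile rank of each constant region (horizontal axis, 100 is the strongest peak of a list) in the 4 libraries, for FOXL2 (left) and H3K27ac (right), labelled by gene and the kb from its start to the region's centre. The FOXL2 regions at Ccnd1 -48.1 kb and Cdkn1b -10.0 kb have the widest gaps between treatments, in opposite directions, while the H3K27ac ranks of Cdkn1b and Cdkn2b stay above 94 in every library.

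Cdkn2b encodes p15, which binds CDK4 and CDK6 and keeps cyclin D from activating them. One H3K27ac region, 4:89304982-89311557, covered the start and the whole gene (6576 bp). Its ranks were 95.2 and 94.8 with vehicle against 97.4 and 96.5 with activin, at authors' folds of 8.19, 7.53, 9.23 and 8.57. Both activin ranks were above both vehicle ranks, by 1.93 points on average, and 37.9% of all constant H3K27ac regions differed at least that far upwards. A small region of 309 bp beyond the 3′ end, 4:89303823-89304131, had no peak with vehicle and ranked 34.7 and 47.3 with activin, and it was the 1 activin-only H3K27ac region of the set.

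FOXL2 gave 3 peaks in Cdkn2b in vehicle replicate 1, 2 in vehicle replicate 2 and 0 in both activin libraries. All 5 lay in the intron under the H3K27ac region, and they were among the weakest of their lists, with ranks from 2.18 to 20.6. They fell into 4 regions, of which 1, 4:89308943-89309172, was found in both vehicle libraries (ranks 13.9 and 3.93, folds 3.91 and 2.80). Among peaks with a −log10 q of at least 5 its vehicle replicate 2 peak was gone and its vehicle replicate 1 peak remained, so it was no longer vehicle-only. The nearest SMAD2/3 region of both activin libraries was centred -149 kb from the start.

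Cdkn2a lies beside Cdkn2b and encodes 2 unrelated proteins from separate first exons: p16 (Ink4a), a CDK4 and CDK6 inhibitor, and p19Arf, which stabilises p53. The start used by the annotation is the Arf start. The H3K27ac region over it, 4:89293432-89296654, ranked 90.0 and 95.6 with vehicle against 86.6 and 95.1 with activin. The ranges overlapped, and vehicle and activin each had 1 high and 1 lower library. In replicate 2 of both treatments the region was made of 2 peaks with a short gap at the start. At the window upstream of the Ink4a start, 4:89282193-89282442, no H3K27ac peak was found in any library, and the nearest lay 67 bp away in activin replicate 2 and 6091, 7028 and 6405 bp away in the others.

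A FOXL2 region in the first intron of Cdkn2a, 4:89286223-89286512, was present in all 4 libraries. It ranked 50.5 and 10.8 with vehicle against 46.7 and 50.8 with activin. Vehicle replicate 2 stood apart from the rest, and the treatments overlapped. An intronic H3K27ac region at 4:89289460-89290660 was weak throughout, with ranks of 22.2, 12.4, 5.22 and 23.2 in the same order of libraries.

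**Figure D3:**
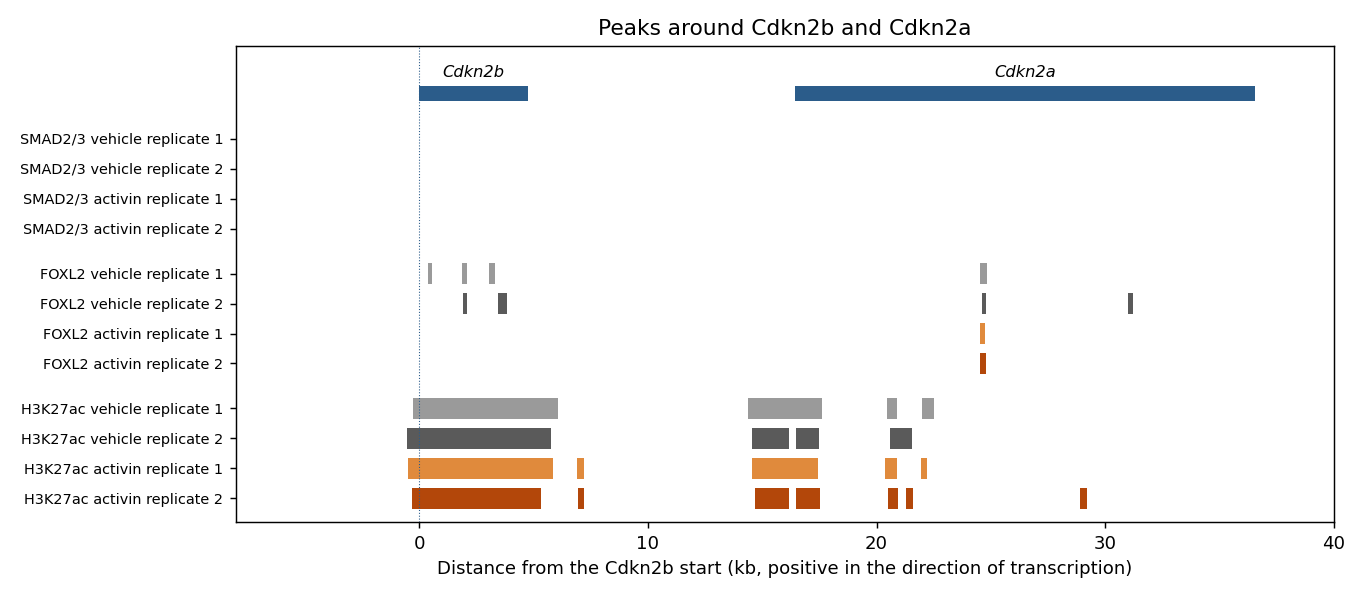
Peaks of each of the 12 libraries (1 row each) around Cdkn2b and Cdkn2a, with the distance in kb from the Cdkn2b start on the horizontal axis and the RefSeq gene bodies on top. H3K27ac peaks lie over the Cdkn2b start and at or beside the Arf start of Cdkn2a in all 4 H3K27ac rows, FOXL2 peaks inside Cdkn2b are in the vehicle rows, and the SMAD2/3 rows are empty.

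Cdkn1b encodes p27, which inhibits cyclin E and cyclin A complexes with CDK2. It had the strongest acetylation of the set. The region 6:134919037-134934785 spans 15749 bp from before the start to beyond the gene and ranked 99.8 and 99.7 with vehicle against 99.1 and 98.4 with activin, at folds of 11.3, 10.1, 9.74 and 8.66. Both activin ranks were below both vehicle ranks (mean difference -0.96 points), and 48.8% of all constant H3K27ac regions differed at least that far downwards. The annotation gave most peaks of this domain to the neighbour 1190002F15Rik, so peaks counted by gene name were 2, 0, 0 and 0. Among those was a separate weak peak of vehicle replicate 1 at -1.83 kb (rank 2.11).

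FOXL2 had 5 regions named for Cdkn1b, of which 3 were constant. The upstream one, 6:134910196-134910627, centred -9.99 kb from the start, is annotated as intergenic. It ranked 72.4 and 75.8 with vehicle against 35.8 and 50.5 with activin, and its folds were 11.0 and 10.4 against 4.70 and 6.40. Both activin libraries were below both vehicle libraries, the mean difference was -31.0 points of rank, and 2.10% of 58444 constant FOXL2 regions of the whole genome differed at least that far in this direction. The regions in the exons, 6:134922462-134922753 and 6:134924127-134924530, ranked 48.5, 56.2, 52.6 and 44.3, and 32.3, 32.4, 28.0 and 36.5. In both, the treatments overlapped. The region nearest the start, at 1.67 kb, had a FOXL2 peak in activin replicate 2 alone (rank 21.8).

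Cdkn1a encodes p21, which inhibits CDK2 complexes and is a well known target of both p53 and SMADs. It had no FOXL2 peak and 2 constant H3K27ac regions. The one at the upstream RefSeq start, 17:29090414-29092692, ranked 58.2 and 56.2 with vehicle against 46.3 and 47.3 with activin, with folds of 3.83, 3.49, 3.26 and 3.48. Its ranks were lower in both activin libraries (mean difference -10.4 points), which 20.9% of constant H3K27ac regions matched or exceeded. The folds kept the same order, with 3.49 against 3.48 at the closest. The other, 17:29093998-29095284, ranked 61.5 and 61.2 with vehicle against 68.4 and 60.0 with activin, which overlap. The downstream promoter window printed above lies between these regions, from 77 to 306 bp from the nearest peak. No SMAD2/3 region of both activin libraries was nearer than -108 kb.

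Cdkn1c encodes p57, an imprinted CDK inhibitor. The gene itself held no FOXL2 or H3K27ac region: the nearest constant H3K27ac region lay 86.7 kb from the gene and the nearest constant FOXL2 region 81.6 kb, both named for Nap1l4, and the nearest SMAD2/3 region of both activin libraries lay 345 kb away.

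Myc encodes a transcription factor that drives growth and, with MAX, represses Cdkn2b and Cdkn1a. The H3K27ac region over the gene, 15:61983658-61988329, ranked 84.1 and 73.8 with vehicle against 79.8 and 83.1 with activin. The ranges overlapped. FOXL2 had 1 region, just upstream of the RefSeq start at 15:61985007-61985249 and annotated as promoter, with ranks of 17.8 and 12.0 with vehicle, no peak in activin replicate 1 and 36.0 in activin replicate 2. Of the activin libraries 1 had no peak and the other ranked above both vehicle libraries. The nearest SMAD2/3 region of both activin libraries was 481 kb away.

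Cdc25a encodes a phosphatase that removes inhibitory phosphates from CDK2. H3K27ac at the RefSeq start, 9:109875565-109877504, ranked 83.4 and 71.7 with vehicle against 73.7 and 73.5 with activin. Vehicle replicate 1 was high and the rest were alike. Nearest the annotated start, at 0.73 kb, was a very weak H3K27ac peak of activin replicate 1 (rank 1.79). The RefSeq gene was touched by 3 constant FOXL2 regions, of which a pair in an intron had peaks named for Cdc25a and the other had none. The first, 9:109884518-109885036, ranked 53.7, 64.7, 59.5 and 47.0, which overlap. The second, 9:109886440-109886819, ranked 77.4 and 84.1 with vehicle against 73.5 and 69.2 with activin, with folds of 11.5, 13.5, 9.56 and 9.13. Both activin ranks were lower (mean difference -9.42 points), and 21.3% of constant FOXL2 regions differed at least that far downwards. Of its 4 peaks, 3 were named for Mir7089, a microRNA gene, and not for Cdc25a.

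The D cyclins differed in how much of either signal they held. At Ccnd1 the FOXL2 region 7:144986124-144986558, intergenic and centred -48.1 kb from the start, ranked 26.1 and 43.0 with vehicle against 59.6 and 68.0 with activin. Its folds were 5.85 and 6.78 with vehicle against 9.76 and 11.8 with activin, a ratio of means of 1.71. Both activin libraries were above both vehicle libraries, by 29.3 points of rank, and 6.73% of constant FOXL2 regions differed at least that far upwards. Nearer to the start, at -9.22 kb, FOXL2 had a weak peak in activin replicate 1 alone (rank 9.67, fold 4.36). No H3K27ac peak was named for Ccnd1 within 100 kb, and the nearest constant H3K27ac region, named for Oraov1, lay 14.0 kb from the gene. The Ccnd1 peaks at -48.1 kb were also the farthest from a start that the distance rule took in, and the nearest left out was an H3K27ac peak of vehicle replicate 1 at -172 kb (fold 2.84, rank 7.46).

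At Ccnd3 the constant FOXL2 region just past the gene's end, 17:47600265-47600633, ranked 69.0 and 61.6 with vehicle against 81.3 and 71.9 with activin, with folds of 11.5, 8.45, 16.5 and 11.2. The activin ranks were above the vehicle ranks, by 11.3 points, while the folds overlapped, and 23.5% of constant FOXL2 regions differed at least that far upwards. The H3K27ac region of Ccnd3, 17:47593643-47594863, ranked 50.8 and 54.6 with vehicle against 62.7 and 60.7 with activin, again higher in both activin libraries (8.98 points, matched or exceeded by 20.2% of constant H3K27ac regions). The annotation's Ccnd3 start lies 91273 bp inside the RefSeq gene, so both regions are near the 3′ end of the whole RefSeq gene. The H3K27ac region is annotated as promoter and lies just past the downstream RefSeq promoter window of Ccnd3, 17:47593217-47593466. Its peaks were 177 to 423 bp from that window. Ccnd2 had no peak under its own name. Around it, 1 FOXL2 and 1 H3K27ac region lay within 100 kb of the gene, 18.9 and 15.0 kb off and both named for Tigar.

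SMAD2/3 did lie near some of these genes under other names. With every region centred within 100 kb of a start taken, whichever gene the annotation named, 12 SMAD2/3 regions were found, and 5 of them were in both activin libraries. Cdkn1b held 4 of these 5 and Ccnd3 the other. All 5 overlapped a FOXL2 region and 4 a joined H3K27ac region with peaks in both activin libraries. At the site 34.0 kb from the Cdkn1b start, the activin H3K27ac peaks left a gap and met only the edge of the SMAD2/3 region. Vehicle replicate 1 had the same gap, while a single peak of vehicle replicate 2 spanned it. Of all 5162 SMAD2/3 regions of both activin libraries, 82% overlapped such a FOXL2 region and 76.7% such an H3K27ac region, so these counts lie near the background. Counted from the RefSeq gene ends, 2 of the 10 genes had a SMAD2/3 region of both activin libraries in the gene or within 100 kb, against 33.8% of 21883 protein-coding genes.

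The region nearest to Cdkn1b, 6:134897303-134897509, is centred -23.0 kb from its start, in the promoter of Gpr19, an orphan receptor gene. SMAD2/3 folds there were 7.70 and 7.22 with activin, with no vehicle peak. FOXL2 at the same place ranked 88.1 and 91.7 with vehicle against 96.9 and 96.9 with activin, and H3K27ac ranked between 94.8 and 97.2 in all 4. The other side held 6:134954258-134954566 at 34.0 kb (SMAD2/3 folds 6.62 and 6.72) and 6:134975918-134976177 at 55.6 kb, upstream of Apold1. The latter had a SMAD2/3 fold of 5.68 in vehicle replicate 1, no peak in vehicle replicate 2, and 11.5 and 10.4 with activin. FOXL2 at 34.0 kb ranked 74.3 and 71.9 with vehicle against 64.6 and 63.1 with activin, and at 55.6 kb 76.6 and 84.0 against 60.8 and 70.0. At both sites FOXL2 ranked lower in both activin libraries, the reverse of the Gpr19 promoter. Either order is common: 28.2% of constant FOXL2 regions within 100 kb of a named start ranked lower and 29.7% higher. The fourth, 6:134836615-134836874 at -83.7 kb, lies in an intron of Crebl2 (folds 6.13 and 5.52), and FOXL2 there ranked 53.0, 56.0, 55.7 and 34.3, so the treatments overlapped.

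SMAD2/3 peaks in a single activin library stood at 3 more sites beside Apold1. At 41.5 kb the peak was in activin replicate 1 (fold 3.26). FOXL2 had a single wide peak there in each vehicle library (ranks 86.3 and 90.8). Each activin library had a pair of narrower peaks in its place. Those over the SMAD2/3 site ranked 56.4 and 73.1, and their neighbours 66.7 and 75.0. All were below both vehicle ranks, but an undivided peak is set against a split one. At 60.0 kb it was in activin replicate 1 (fold 5.38), and FOXL2 had no vehicle peak and ranked 44.9 and 38.7 with activin. At 64.6 kb it was in activin replicate 2 (fold 3.73), and FOXL2 ranked 23.7, 44.4, 21.1 and 44.5, so the treatments overlapped.

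At a weaker SMAD2/3 site near Cdkn1b, the treatments stood apart in the other antibodies. At 6:134862206-134862363, -58.1 kb from the start, SMAD2/3 had a peak in activin replicate 1 (fold 3.79) and in no other library. FOXL2 there had no peak in vehicle replicate 1, ranked 11.6 in vehicle replicate 2 and ranked 62.3 and 70.8 with activin. The joined H3K27ac region over the site ranked 68.2 and 66.5 with vehicle against 88.0 and 88.7 with activin. The activin peaks covered the SMAD2/3 site, while the vehicle peaks of that region lay beside it and did not touch it. For both FOXL2 and H3K27ac the treatments did not overlap. Such a separation is common: 26.5% of constant H3K27ac regions within 100 kb of a named start ranked higher in both activin libraries. The share was 29.7% for constant FOXL2 regions, although the FOXL2 region here was not constant. This site was singled out after its values were seen, and its nearest named gene is Crebl2 and not Cdkn1b.

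**Figure D4:**
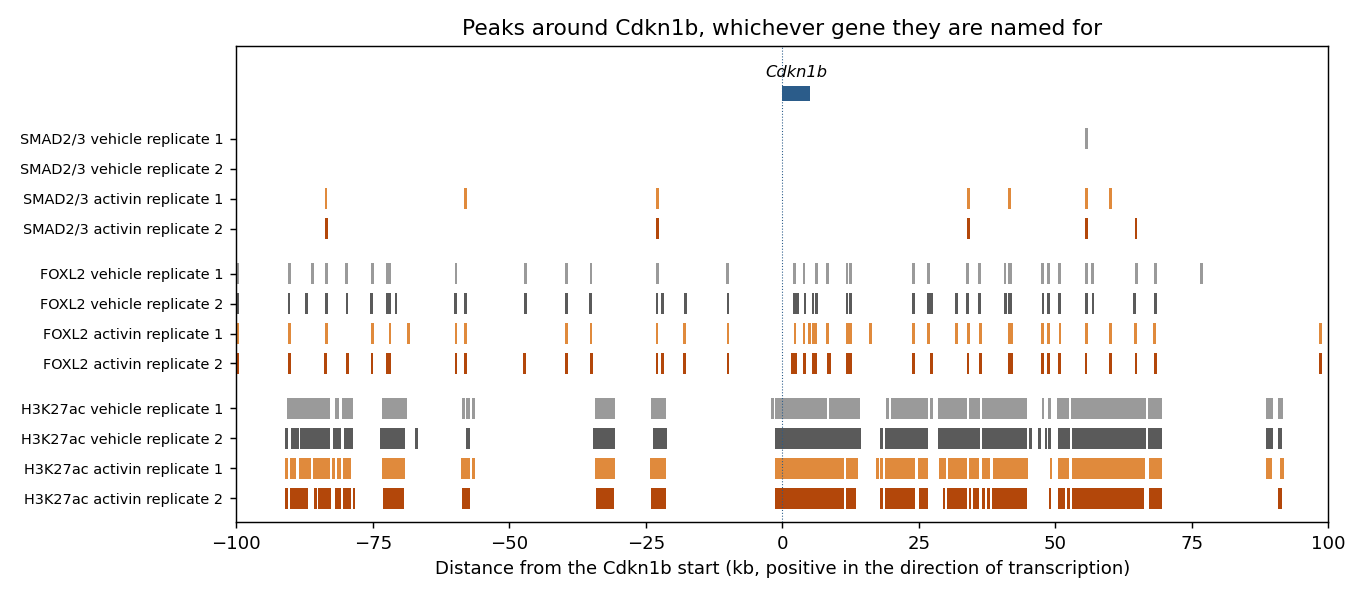
Peaks of each of the 12 libraries (1 row each) within 100 kb of the Cdkn1b start, whichever gene they are named for, with distance in kb on the horizontal axis and the RefSeq gene body on top. SMAD2/3 peaks of both activin rows stand at -83.7, -23.0, 34.0 and 55.6 kb, none in the gene itself.

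The Ccnd3 neighbour, 17:47645140-47645347 at 48.9 kb, is named for Kpna2-ps. SMAD2/3 folds were 4.99 and 5.73 with activin, and no H3K27ac peak overlapped it. FOXL2 there ranked 90.1 and 93.6 with vehicle against 98.0 and 97.5 with activin. Of constant FOXL2 regions within 100 kb of a named start, 29.7% ranked higher in both activin libraries. Near Ccnd1, 2 SMAD2/3 regions at 39.7 and 39.3 kb (named for Gm26793) had a peak in activin replicate 1 alone. Both overlapped an H3K27ac region, 7:144897658-144898778, with no vehicle peak and ranks of 32.8 and 51.3 with activin. The one at 39.3 kb, 7:144898774-144898977, met only the edge of that region, and no FOXL2 region overlapped either. Near Cdc25a, 1 weak region at 68.2 kb had a peak in activin replicate 2 alone (fold 3.06). Cdkn1a, Cdkn2a, Cdkn2b and Myc had none within 100 kb, nor did Cdkn1c and Ccnd2 as counted from their RefSeq ends.

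A list of 27 other genes of the G1 phase, among them Cdk2, Cdk4, Cdk6, the E cyclins, the retinoblastoma family, E2F factors and MYC partners, was read by the same rule. Of these 27 genes, 26 had a peak of some antibody, 22 a FOXL2 region, 21 a constant H3K27ac region and 1 a SMAD2/3 region in both activin libraries. Among all 28143 genes with a peak, the shares were 86.6% for FOXL2, 49.6% for constant H3K27ac and, as above, 11.6% for SMAD2/3. That gene was Max, the partner of MYC, with 12:76952006-76952225 in an intron at 10.1 kb from the start, folds of 6.34 and 5.92 with activin and no vehicle peak, over a constant FOXL2 region and no H3K27ac. From the RefSeq gene ends, 16 of the 27 genes had a SMAD2/3 region of both activin libraries in the gene or within 100 kb, against the 33.8% given above.

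At the starts themselves, H3K27ac in all 4 libraries was found at 3 of the 9 windows of the set, those of Cdkn1b, Cdkn2b and the upstream start of Cdkn1a, against 20.1% of all RefSeq promoter windows. FOXL2 touched 1 of the 9, the upstream Ccnd3 window at 17:47504801-47505050, with a peak in vehicle replicate 2 and activin replicate 2. FOXL2 in all 4 libraries was found at 0 of the 9, against 1.79% of all windows.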

How the data were processed

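Per the submitters' processing notes, Bowtie2, MACS2 and HOMER were used with GRCm38 (mm10). Versions, thresholds and use of the control are not given in the sources used here. Per the file headers, each library has its own deposited peak list (narrow for SMAD2/3 and FOXL2, broad for H3K27ac) with the authors' fold (a linear ratio over background), −log10 p and −log10 q, and a HOMER annotatePeaks table with the nearest gene and distance. Folds and ranks describe a peak within its own list. The Protein-A control was not analysed here, and its level could not be set beside the values.

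Gene starts were derived from the deposited distances. For Cdkn1a they lie 7228 bp, for Cdc25a 8095 bp and for Ccnd1 1634 bp inside the RefSeq gene. The test of peak numbers, on log2(number + 1), was an exact permutation test (two-sided, 6 labellings). All 10 genes are described, with each gene's strongest region, the region nearest its start, those at SMAD2/3 and the activin-only or vehicle-only ones. Markers were read over RefSeq gene bodies with 1000 bp on each side, as broad peaks have distant centres. Coordinates count from 1. The merging step was tested on simulated data. Python 3.11.15, pandas 2.3.3 and scipy 1.17.1 were used. The genes, lists and tests were chosen with earlier results of these data known.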

Additional observations from a re-analysis of the deposited data

How the results depend on the processing

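Peak lists carry no reads, so depth limits which weak sites appear, and 2 libraries per treatment limit every comparison. Values were taken as unmoved when a count stayed within 1.5 times, or when a peak number difference kept its sign, whatever its size. The p-value did not enter this reading. By that reading 35 values moved, 104 did not and none reversed. The tally is not a measure of stability. Many of the unmoved values were SMAD2/3 counts of 0, which a stricter cut, a shorter distance or fewer libraries cannot raise. Peak number differences still shrank in some settings: with every gene name they were -0.06 for FOXL2 (exact permutation p = 0.667) and 0.14 for H3K27ac, and with lists of equal length 0.16 for H3K27ac (exact permutation p = 1). In others they widened: FOXL2 was -0.48 with lists of equal length and -0.42 within 20 kb (exact permutation p = 0.333 in both). H3K27ac was 0.27 without vehicle replicate 1. With peaks of −log10 q of at least 5, FOXL2 vehicle-only regions numbered 0, H3K27ac vehicle-only regions 1, and H3K27ac regions ranked higher or lower 1 each. Within 20 kb, FOXL2 regions ranked higher numbered 1. With lists of equal length, FOXL2 regions ranked lower numbered 4. With every peak within 100 kb of a start, whichever gene it was named for, the SMAD2/3 peak difference was 2.73 (log2, exact permutation p = 0.333). SMAD2/3 activin-only regions then numbered 4, and SMAD2/3 regions with FOXL2 5 and with H3K27ac 4. In the same setting FOXL2 gave 6 activin-only, 9 vehicle-only, 13 higher and 22 lower regions, and H3K27ac 3, 3, 8 and 18. More regions enter this setting by its construction; the cause of other shifts was not tested. Leaving out each library in turn gave, for FOXL2, 0 to 1 activin-only, 1 to 3 vehicle-only, 2 to 5 higher and 1 to 4 lower regions. For H3K27ac it gave 1 to 3 activin-only, 0 to 1 vehicle-only, 2 to 4 higher and 2 to 5 lower. The alternatives added after seeing the data were counting regions under any name and leaving out Cdkn2b.

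Same-numbered libraries share a number and no stated pairing: deviations of same-numbered libraries over constant regions correlated at 0.13 for FOXL2 and -0.03 for H3K27ac. With the replicate number as a block, the FOXL2 difference was -0.38 and the H3K27ac difference 0.21 (exact permutation p = 0.5 in both, the smallest 2 pairs allow), and SMAD2/3 stayed at 0. A block leaves a difference of means as it was, so these differences could not move. FOXL2 regions ranked higher and lower numbered 2 and 2 under the block, and H3K27ac regions 2 and 3.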
